A study of Mus musculus with 20 samples.

Results

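State 4 is one of 7 states that a trajectory analysis gave to single cells of the mouse ovarian surface epithelium (OSE). Its members were taken as every cell marked State 4 in the deposited cell metadata, which gave 64 of 589 cells. Of these, 43 were among the 260 cells treated with estradiol (E2) and 21 were among the 329 control cells.

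Primary cultures of mouse OSE cells had been kept without hormones for 48 hours and then grown for 15 days with either 100 nM E2 or the vehicle, ethanol at 0.0002%. Both conditions were captured on 1 Fluidigm C1 circuit, a chip that isolates each cell in its own site, and every plate column of the chip became 1 cDNA library. Control cells filled columns 1 to 10 and E2 cells the other 10, of which column 13 was not analysed here, so that 19 libraries remained. Per the labels, control cells entered the chip through its left inlet and E2 cells through its right inlet, so treatment and loading cannot be told apart. Nothing ties the libraries of a condition to separate cultures or animals, and p-values measure only the spread between libraries, which may be technical.

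The OSE is a single layer of mesothelial-type cells around the ovary that expresses simple keratins together with genes usually linked to mesenchyme. E2 acts mainly through estrogen receptor alpha, encoded by Esr1, a nuclear receptor that binds DNA and recruits coactivators to target genes such as Greb1. A trajectory analysis orders cells by the similarity of their transcriptomes, pseudotime is the distance of a cell from a chosen root, and a state is one segment between branch points. Since the states were themselves derived from gene expression in these cells, values of State 4 beside those of other states are descriptions without a test.

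In each condition 9 libraries held State 4 cells. In control, 8 of these libraries had 2 such cells, column 3 had 5 and column 7 had none. E2 libraries had 2 to 9 State 4 cells, with a median of 4. State 4 cells made up 0 to 15.2% of the cells of a control library (median 6.2%) and 7.4 to 30.0% of those of an E2 library (median 14.8%). The summed reads of the State 4 cells in a library ranged from 197125 to 639006 (median 281192) in control and from 292640 to 1001341 (median 482180) in E2, so E2 sums rested on more cells and more reads.

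Quality measures of the State 4 cells overlapped between conditions. Library medians of reads per cell averaged 131575 ± 24073.5 in control and 121568 ± 45202.1 in E2 (SD, n = 9 each), with an exact two-sided permutation p of 0.566. The library median of genes with a count was 4354 ± 446 and 4277 ± 905 (SD, n = 9 each, exact permutation p = 0.828). E2 column 19 had the lowest library medians of both, with 45762 reads and 2560 genes per cell. The mitochondrial share of reads was 2.50% ± 1.14 in control and 2.33% ± 0.680 in E2 (SD, n = 9 each, exact permutation p = 0.730). With 9 libraries a side the lowest possible p is 4.11e-05, and adjustment over these 3 tests put all of them at 0.828.

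Control and E2 cells of State 4 did not occupy the same stretch of the trajectory. Control cells lay at pseudotimes of 38.96 to 45.54 with a median of 40.89, and E2 cells at 38.64 to 51.91 with a median of 47.86. The range held by both conditions contained all 21 control cells and 10 of the 43 E2 cells, while 32 E2 cells lay beyond it and 1 lay before it. State 5, the next E2 segment, held 151 E2 cells and no control cell and began at 52.31. State 2, the control branch, held 143 control cells and 4 E2 cells, between 36.42 and 50.27. The label of a start of the E2 branch therefore fits the position of the E2 cells, whereas the description as a position shared by both conditions holds for 10 of 43.

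**Figure D1:**
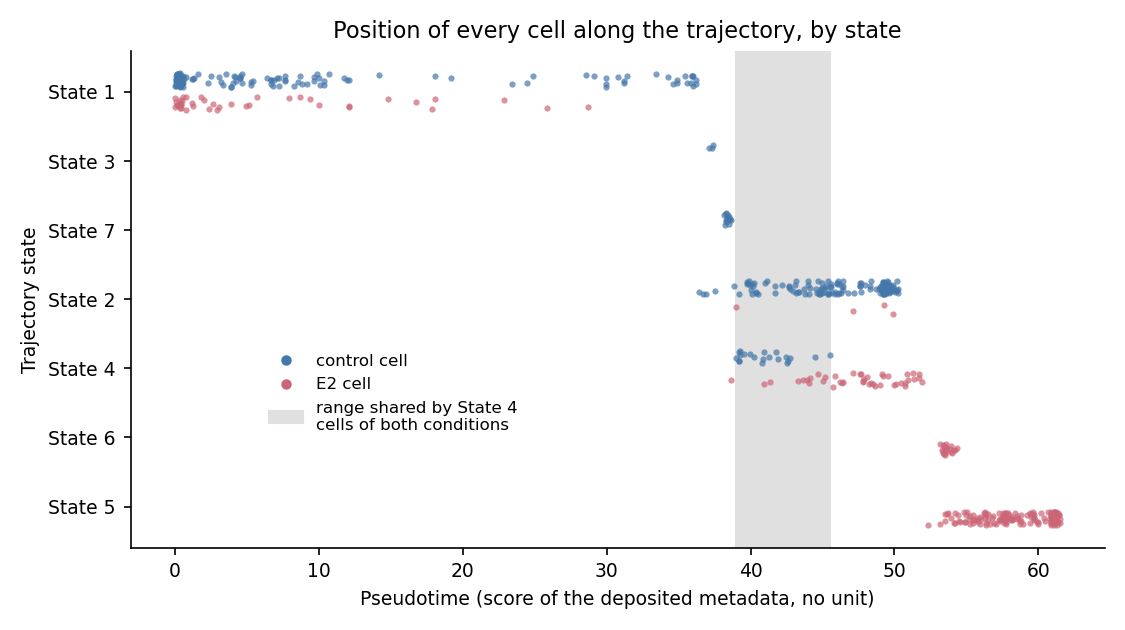
Pseudotime of each of the 589 cells (x axis, a score without unit) by trajectory state (y axis), with control cells in blue, E2 cells in red and the range shared by State 4 cells of both conditions in grey. The 21 State 4 control cells all lie in the grey band, and 32 of the 43 State 4 E2 cells lie to its right.

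The cluster labels in the metadata divided State 4 by treatment. At 2 clusters, 63 of the 64 cells fell in the larger cluster, whose cells are called responsive here, and 1 E2 cell fell in the other. At 3 clusters, all 21 control cells were in the cluster with label 2 and 42 of the 43 E2 cells were in the cluster with label 3. At 4 clusters, 20 control cells and 4 E2 cells shared label 4, 34 E2 cells had label 3, and 1 control cell and 5 E2 cells had label 2.

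Genes that mark the OSE were present in all State 4 libraries, and those of leukocytes and of muscle and pericytes were scarce. The 15 OSE genes in the table summed to 5013 to 7762 CPM (median 5592) in control and to 3943 to 7650 CPM (median 5754) in E2, where CPM are reads scaled to a sum of 1000000. All 15 stromal genes were also read, at 6286 to 16317 CPM in control and 7391 to 14345 CPM in E2. Leukocyte genes summed to 0 to 484.5 CPM in control and 0 to 191.4 CPM in E2 (5 genes, with Cd3e at 0 in E2), and muscle and pericyte genes to 0 to 225.5 and 0 to 29.0 CPM (6 genes, with Acta2 and Des at 0 in both conditions and Cspg4 at 0 in control). Granulosa and theca genes summed to 0 to 182.0 CPM in control and 3.4 to 486.8 CPM in E2 (5 genes, with Inhba at 0 in both).

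The 6 endothelial genes summed to 410.0 to 1138 CPM in control and 415.7 to 713.6 CPM in E2, with Flt1 at 0 in both. Pecam1, an adhesion molecule best known from endothelium, accounted for most of this and was read in all 64 State 4 cells, at 601 ± 195 CPM in control and 515 ± 78.0 CPM in E2 (SD, n = 9 each). Its log2 difference between conditions was -0.16 (SE 0.23). The part of other cell types in the differences between conditions was not tested.

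The 3 genes given as markers of State 4 had reads in most of its cells. Krt19 (chr11:100140810-100148665 on the minus strand of GRCm38) encodes an acidic simple keratin and was read in 21 of 21 control and 41 of 43 E2 cells. Igfbp5 (chr1:72857932-72874884, minus strand) encodes a secreted protein that binds insulin-like growth factors and was read in 15 of 21 control and 39 of 43 E2 cells. Ptgis (chr2:167191805-167240604, minus strand) encodes prostacyclin synthase and was read in 20 of 21 control and 37 of 43 E2 cells.

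Krt19 in control libraries of State 4 ranged from 99.6 to 702.6 CPM with a median of 327 CPM. In E2 libraries it ranged from 292 to 749 CPM with a median of 647 CPM. The E2 libraries were on the whole the higher ones, but 7 of them lay within the range of control. On the log2 scale E2 exceeded control by 0.73 (SE 0.30, 95% interval 0.11 to 1.35), with an unadjusted p of 0.0233 and an adjusted p of 0.9999 by edgeR's quasi-likelihood test across 3961 genes.

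Igfbp5 ranged from 4.18 to 724.9 CPM in control libraries (median 277 CPM). Its E2 libraries ranged from 13.7 to 962 CPM (median 515 CPM). Both conditions had a library with few reads of this gene, and 6 of the 9 E2 libraries lay within the control range. Its log2 fold change was 0.72 (SE 0.57, 95% interval -0.46 to 1.90, edgeR p = 0.220).

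Ptgis was at 40.6 to 725.3 CPM in control libraries (median 497 CPM). E2 libraries had 61.0 to 622 CPM (median 278 CPM). Every E2 library was inside the control range, and the log2 fold change was -0.41 (SE 0.42, 95% interval -1.28 to 0.45, edgeR p = 0.333).

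The question at this position was which genes already differed between E2 and control cells. Over all 3961 genes tested, edgeR called 0 (0.0%), where a call needed an adjusted p under 0.05 together with a log2 fold change beyond 0.5 in either direction. At an unadjusted p below 0.05 there were 134 genes (3.38%), of which 90 were higher with E2 (2.27%) and 44 lower (1.11%). DESeq2 called 2 genes (0.0505%), Lpl and Ctsh, both higher with E2. limma-voom with quality weights called 4 (0.101%), namely Lpl, Ctsh, Il4ra and Pcp4l1, again all higher. These alternatives gave more small p-values throughout, with 200 genes at an unadjusted p below 0.05 for DESeq2 and 361 for limma-voom. edgeR without a filter on genes gave 1902 of 13796. The median log2 fold change of limma-voom was also higher by 0.25 than that of edgeR. The libraries of both conditions were fully separated for 1 gene of 3961 (0.0252%), Ctsh. With counts simulated from the levels and spread of these libraries, edgeR recovered 4.48% of 2-fold changes, 22.4% of 4-fold changes and 60.6% of 8-fold changes. These shares were taken of all 67, 67 and 66 changes, including those lost to the filter before the test. The filter left 3269 genes in that run, so the shares can be lower than among the 3961 genes tested. Recovery among those 3961 genes was not tested. The absence of calls does not show that few genes differed.

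Ctsh (chr9:90054152-90076089, plus strand) encodes cathepsin H, a lysosomal cysteine protease. Control libraries of State 4 held 0 to 171 CPM with a median of 32.9 CPM, and 3 of them had no read. E2 libraries held 219 to 758 CPM with a median of 392 CPM. All 9 E2 libraries were above all 9 control libraries. Mean levels were 55.1 ± 66.5 CPM in control and 456 ± 188 CPM in E2 (SD, n = 9 each). This was a log2 fold change of 3.11 (SE 0.70, 95% interval 1.66 to 4.55, edgeR p = 0.000158, adjusted p = 0.314). The adjusted p of Ctsh ranged from 0.00183 with DESeq2 to 0.998 within the shared pseudotime range.

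Lpl (chr8:68880491-68907448, plus strand) encodes lipoprotein lipase, the enzyme that releases fatty acids from circulating triglycerides. It was read in 20 of 21 control cells and 41 of 43 E2 cells. Control libraries had 115 to 619 CPM with a median of 213 CPM, and E2 libraries had 435 to 1516 CPM with a median of 966 CPM. E2 column 19, whose State 4 cells had the lowest median reads, lay within the control range, and the other 8 E2 libraries were above it. For Lpl the log2 fold change was 1.75 (SE 0.34, 95% interval 1.06 to 2.44, edgeR p = 1.96e-05, adjusted p = 0.0775). The adjusted p of Lpl passed the threshold with DESeq2 (0.00183), limma-voom (0.00570), no filter on genes (0.0392), thinned cells (0.0131) and robust dispersions (0.0456), and not with totals in place of TMM, in the responsive cells alone or in the shared pseudotime range (0.958). Its highest value was 0.964, with at least 3 cells per library, where only control column 3 remained among the controls and the log2 fold change was 2.09.

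Il4ra and Pcp4l1 are named here after their values were seen. Il4ra, a subunit of the interleukin-4 and interleukin-13 receptors, was at 0 to 49.8 CPM in control libraries (median 0) and at 7.62 to 262 CPM in E2 libraries (median 164 CPM). Reads of Il4ra were found in 4 of 21 control and 28 of 43 E2 cells, and 8 of 9 E2 libraries were above the highest control library. For Il4ra the log2 fold change was 3.57 (SE 1.02, edgeR adjusted p = 0.9999). Pcp4l1, a small protein with a calmodulin-binding IQ motif, was read in all 64 cells, at 1201 to 2136 CPM in control libraries (median 1523 CPM) and 2100 to 4111 CPM in E2 libraries (median 2280 CPM). For Pcp4l1 the groups overlapped only at their edges, with 6 E2 libraries above every control library, and the log2 fold change was 0.74 (SE 0.19, edgeR adjusted p = 0.631).

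**Figure D2:**
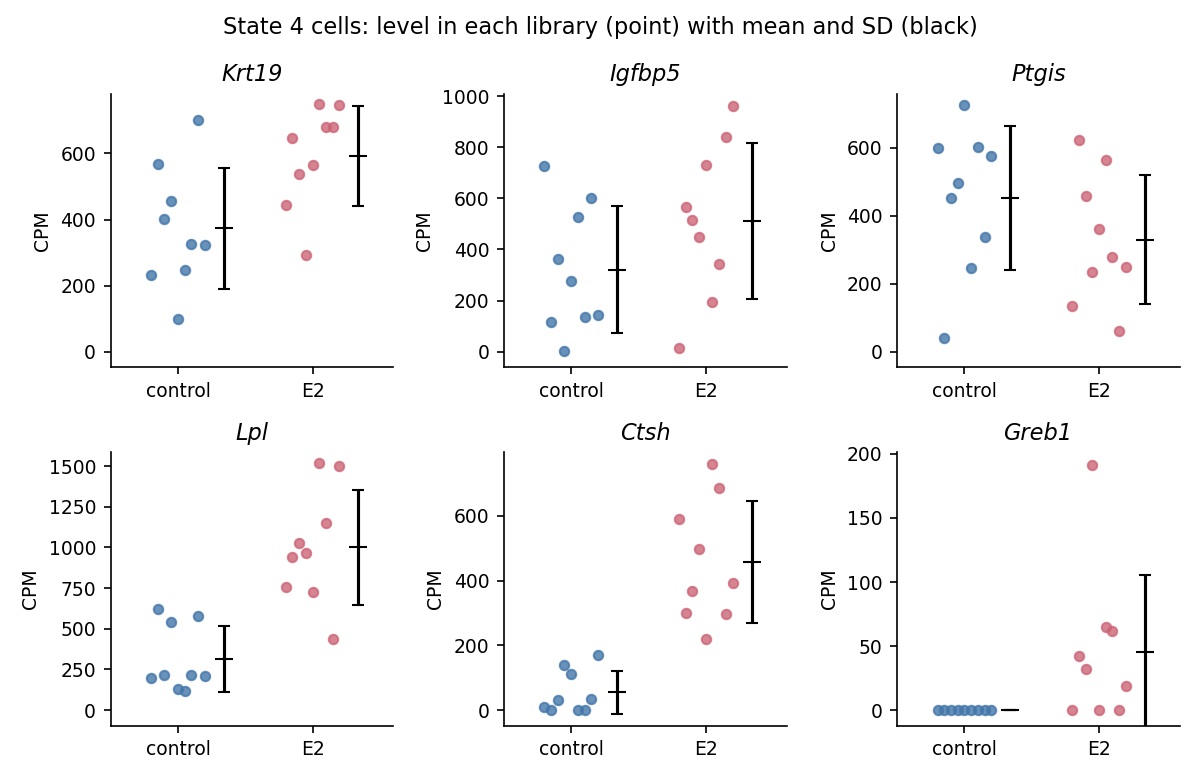
Level in State 4 cells (y axis, CPM of the summed reads of a library) of 6 genes in 9 control and 9 E2 libraries, each point being 1 library, with the mean and SD in black. The Ctsh points of the 2 conditions do not overlap, 8 of 9 E2 points of Lpl lie above all control points, and the points of Krt19, Igfbp5 and Ptgis overlap.

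Greb1 (chr12:16670615-16800886, minus strand), a coactivator of estrogen receptor alpha and a classic estradiol target, was read only in E2 cells of State 4. No read fell on it in 21 control cells. At this depth that allows a share of cells with a read of up to 14.3%, or 16.1% by the exact 95% interval. Reads were found in 11 of 43 E2 cells (25.6%, exact 95% interval 13.5 to 41.2%) from 6 of 9 libraries. Both exact intervals count cells, not libraries, and they overlap. E2 libraries ranged from 0 to 191 CPM with a median of 32.0 CPM, so that 3 E2 libraries were at 0 like those of control. Over all State 4 cells, E2 held 268 reads of Greb1, which relative to the total reads was 47.8-fold more than 3 reads over all control cells would be. These 268 reads came from only 11 cells, so reads were not independent and the ratio is not a lower bound. Column 15 held 131 of the reads, and without it the ratio was 28.2-fold. The mean of the E2 libraries was then 27.4 ± 27.1 CPM (SD, n = 8) in place of 45.6 ± 60.2 CPM (SD, n = 9).

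After each cell was thinned to 20000 reads, the library share of cells with a Greb1 read was 0% in every control library and 24.5% ± 20.2 (SD, n = 9) in E2 libraries. The exact two-sided permutation p was 0.00905, and 0.0633 after adjustment over 7 genes. The study had singled out Greb1 in these same cells because its expression was restricted to the E2 branch, so this p is not independent evidence. Without thinning the share in E2 libraries was 28.2% ± 24.6 (SD, n = 9), with the same p. In State 2, 1 of 143 control cells had a single read of Greb1, and in State 5, 31 of 151 E2 cells had reads, at 29.1 ± 18.3 CPM (SD, n = 9). Intervals and limits here cover counting error only and treat cells as independent, which cells of the same library need not be. The reads carry no molecular identifiers.

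Esr1 itself was sparse in both conditions. It was read in 5 of 21 control and 13 of 43 E2 cells of State 4, at 30.2 ± 46.1 CPM in control and 26.5 ± 20.7 CPM in E2 (SD, n = 9 each), or 17.1 CPM in control without column 8. The thinned share of Esr1-positive cells was 24.4% ± 35.4 in control and 23.2% ± 20.0 in E2 libraries (SD, n = 9 each, exact permutation p = 0.979). Esr2, the gene of estrogen receptor beta, had 1 read in 1 control cell and none in the 43 E2 cells, and Pgr and Nr3c2 were not among the genes of the table. Among 12 genes of steroid receptors and their cofactors, 4 were tested, with 0 at an unadjusted p below 0.05.

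Of the other estradiol targets, 7 of the 30 genes listed from breast and uterine cells were tested. None was higher with E2 at an unadjusted p below 0.05 and 1 was lower, Krt8, which encodes a basic simple keratin. Krt8 had 245 to 1434 CPM in control libraries (median 738 CPM) and 184 to 856 CPM in E2 libraries (median 483 CPM). Control libraries of Krt8 were the higher ones on the whole and 3 of them exceeded every E2 library. Its log2 fold change was -0.70 (SE 0.34, edgeR p = 0.0473, adjusted p = 0.9999). The median log2 fold change of the 7 targets was -0.42, beside 0.07 over all 3961 genes tested.

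The study's text ties 20 genes to the E2 branch, and these were set against control in State 4. Because the study chose them on these cells, their directions are not independent evidence. Greb1 is on this list but did not pass the filter on genes in State 4, so it was not tested there. Of the 19 tested in State 4, 0 were called, 3 were higher at an unadjusted p below 0.05 (Krt19, Lpl and Ctsh) and 1 was lower (Mapk14). Of the 19 log2 fold changes, 16 were above 0 and 3 below, with a median of 0.80, while over all genes 2180 of 3961 were above 0. In the other 358 responsive cells, the same test called 145 of 9993 genes (1.45%), 89 higher (0.891%) and 56 lower (0.56%), and 14 of these 20 genes were called higher there, with a median log2 fold change of 0.95. Greb1 was among the 14, with a log2 fold change of 8.42 (SE 0.76) over a control level of 1 read. Of these 358 cells, 143 of 182 control cells were in State 2 and 151 of 176 E2 cells were in State 5. This comparison therefore also set different states against each other. Since states were derived from expression in the same cells, its calls are not independent evidence of treatment. It also rested on more cells than the 64 of State 4.

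Within this list the secreted factors and their partners had wide errors in State 4. Enpp2 encodes autotaxin, which makes lysophosphatidic acid, and its log2 fold change was 0.80 (SE 1.08) in State 4 beside 4.16 (SE 0.67) in the other responsive cells. For Igfbp5 the corresponding value in the other responsive cells was 2.94 (SE 0.24). Fgf9, a fibroblast growth factor, had 1.36 (SE 0.71) in State 4 and 1.87 (SE 0.32) elsewhere, and Kitl, the ligand of the receptor Kit, had 1.54 (SE 0.83) and 1.09 (SE 0.26).

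Lpl and Krt19 had fold changes of like size in both places. In the other responsive cells the log2 fold change was 2.10 (SE 0.15) for Lpl, 2.30 (SE 0.17) for Ctsh and 0.61 (SE 0.13) for Krt19. Tacc1, a centrosomal coiled-coil protein, had 1.27 (SE 0.65) in State 4 and 2.06 (SE 0.18) elsewhere. Gja1, the gap junction protein connexin 43, had 0.90 (SE 0.44) and 0.72 (SE 0.19). These pairs of values were set side by side without a test of their difference.

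Signalling genes of the list ran in both directions. In State 4 the log2 fold change was 0.98 (SE 0.63) for the small GTPase Cdc42, 0.82 (SE 0.87) for the MAP kinase kinase Map2k1 and 0.24 (SE 0.43) for the AP-1 subunit Fos. Mapk14, which encodes the stress kinase p38 alpha, was at 0 to 426 CPM in control libraries (median 118 CPM) and 0 to 87.1 CPM in E2 libraries (median 5.84 CPM). For Mapk14, 6 control libraries exceeded every E2 library, and the log2 fold change was -2.20 (SE 0.98, edgeR p = 0.0336, adjusted p = 0.9999), while in the other responsive cells it was 0.91 (SE 0.31). Hif1a, the oxygen-regulated transcription factor, had -0.75 (SE 0.72) and Nanog had -0.69 (SE 0.74), the latter with pseudogene copies whose reads the counting could have split.

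**Figure D3:**
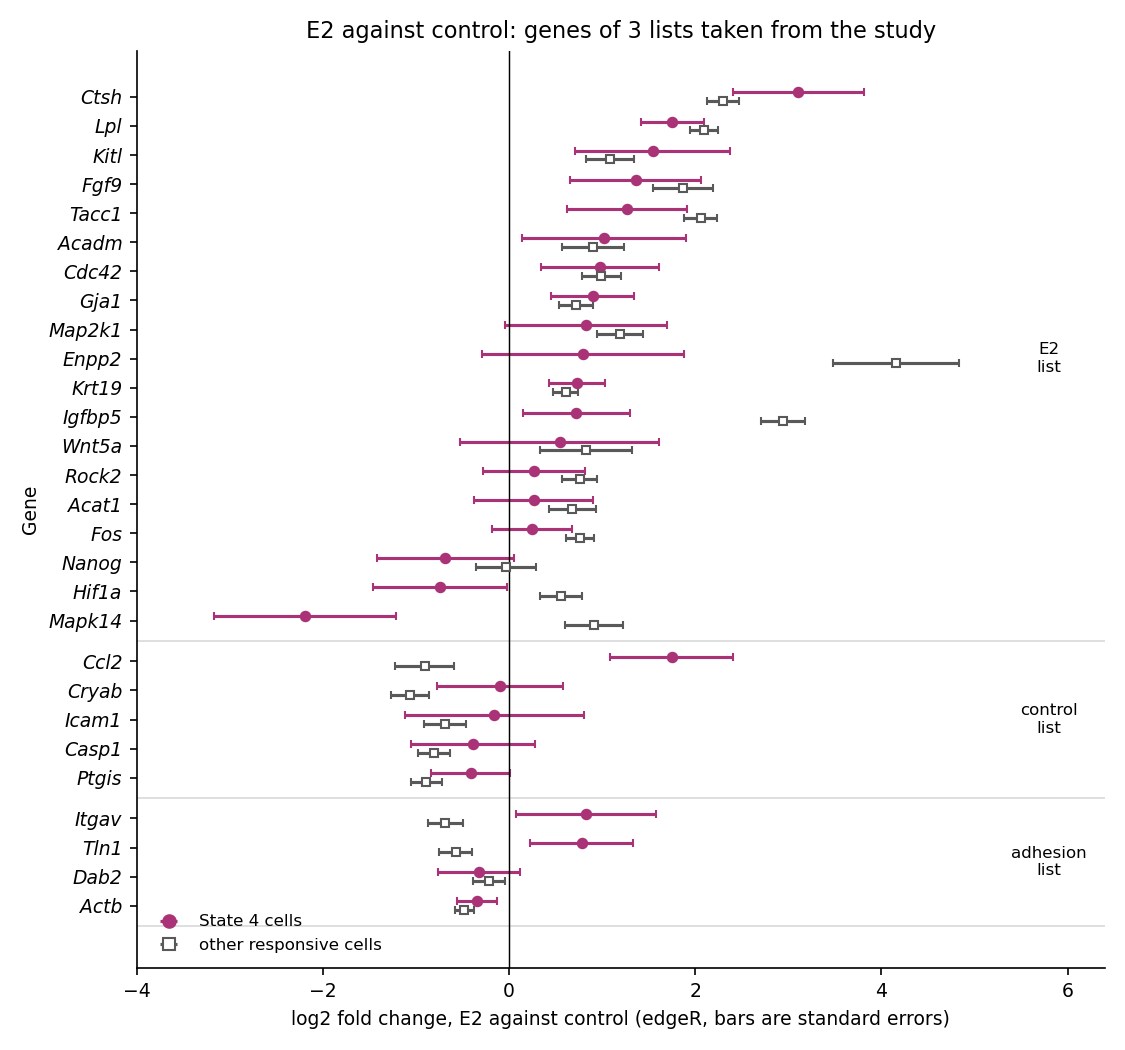
Log2 fold change of E2 against control (x axis, bars are standard errors) for the tested genes of 3 lists taken from the study's text (y axis), in State 4 cells (filled circles) and in the other responsive cells (open squares). Igfbp5 at 0.72 and Enpp2 at 0.80 in State 4 lie far below 2.94 and 4.16 in the other cells, and Mapk14, Hif1a (not with limma-voom), Ccl2, Itgav and Tln1 (not in the shared range or with at least 3 cells per library) have opposite signs in the 2 sets.

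Of the 6 genes that the study's text ties to control cells, 5 were tested in State 4, with 0 called and a median log2 fold change of -0.16. In the other responsive cells 3 of the 6 were called lower with E2 and the median was -0.87. Ptgis was one of them there, at -0.89 (SE 0.17). The heat shock protein gene Cryab had -0.10 (SE 0.68) in State 4 and -1.07 (SE 0.21) elsewhere, the inflammatory caspase Casp1 had -0.39 (SE 0.66) and -0.81 (SE 0.17), and the adhesion receptor Icam1 had -0.16 (SE 0.96) and -0.69 (SE 0.22).

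Ccl2, a chemokine that attracts monocytes, was the 1 gene of this list with an unadjusted p below 0.05, and it was higher with E2. Control libraries of State 4 had 0 to 1153 CPM (median 282 CPM), and E2 libraries had 35.6 to 2682 CPM (median 677 CPM). Only 2 E2 libraries lay above the highest control library, column 10. For Ccl2 the log2 fold change was 1.75 (SE 0.66, 95% interval 0.39 to 3.10, edgeR p = 0.0134, adjusted p = 0.9999), and in the other responsive cells it was -0.91 (SE 0.32, adjusted p = 0.217). Along the states, Ccl2 stood at 612 ± 332 CPM in State 2 control (SD, n = 10), 296 ± 355 in State 4 control, 960 ± 775 in State 4 E2 and 343 ± 228 in State 5 E2 (SD, n = 9 each). Without column 10 the State 4 control mean of Ccl2 was 188 CPM.

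Of 10 inflammatory genes tested, 1 was higher with E2 at an unadjusted p below 0.05 (Ccl2) and none was lower. Complement C3 was at 1696 ± 846 CPM in control and 1189 ± 547 CPM in E2 (SD, n = 9 each), a log2 fold change of -0.45 (SE 0.30). The acute-phase gene Saa3 had 1.24 (SE 1.01) and was spread from 3.42 to 3043 CPM over E2 libraries.

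Adhesion and cytoskeleton genes from the study's text were 6, of which 4 were tested, with 0 called and none at an unadjusted p below 0.05. The integrin subunit Itgav had a log2 fold change of 0.83 (SE 0.75) in State 4 and -0.69 (SE 0.19) in the other responsive cells. Talin, Tln1, had 0.78 (SE 0.56), which became -0.16 in the shared pseudotime range and -0.19 with at least 3 cells per library, and -0.57 (SE 0.18) in the other responsive cells. Actb, beta-actin, had -0.34 (SE 0.21) in State 4 and -0.48 (SE 0.10) elsewhere, and the endocytic adaptor Dab2 had -0.33 (SE 0.44) and -0.22 (SE 0.17). Actb has processed copies in the genome, which makes its counts less certain.

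Metabolic genes had 2 members beyond an unadjusted p of 0.05 among 16 tested for fatty acid handling, Lpl and Acaa2, both higher with E2. Acaa2, the thiolase of the last step of mitochondrial fatty acid oxidation, was at 83.9 to 868 CPM in control libraries (median 420 CPM) and 379 to 1099 CPM in E2 libraries (median 708 CPM). For Acaa2, 3 E2 libraries exceeded every control library and 4 control libraries were below every E2 library. Its log2 fold change was 0.92 (SE 0.36, edgeR p = 0.0170, adjusted p = 0.9999) in State 4 and 0.18 (SE 0.15) in the other responsive cells. Fabp5, a fatty acid carrier, had -1.83 (SE 0.94) in State 4 and 0.90 (SE 0.40) elsewhere. The median of the 16 genes was 0.12.

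Of 12 mitochondrially encoded transcripts tested, 9 had a log2 fold change above 0 and 1 had an unadjusted p below 0.05. That was mt-Cytb, a subunit of respiratory complex III, at 2515 ± 1114 CPM in control and 3492 ± 1009 CPM in E2 (SD, n = 9 each). In mt-Cytb the log2 fold change was 0.54 (SE 0.25, edgeR p = 0.0407, adjusted p = 0.9999). Among 13 hypoxia genes tested, none had an unadjusted p below 0.05, with lactate dehydrogenase Ldha at 0.76 (SE 0.48) and the growth factor Vegfa at -1.30 (SE 0.88).

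Kdr, the receptor for vascular endothelial growth factor, was 1 of 2 endothelial genes tested and was lower with E2 at an unadjusted p below 0.05. Control libraries of State 4 had 0 to 205 CPM (median 110.2 CPM), and E2 libraries had 0 to 73.5 CPM (median 2.54 CPM). For Kdr, 6 control libraries were above every E2 library, and reads fell in 12 of 21 control and 10 of 43 E2 cells. The log2 fold change of Kdr was -2.53 (SE 1.00, edgeR p = 0.0179, adjusted p = 0.9999). In State 2 control cells Kdr was at 35.7 ± 27.1 CPM (SD, n = 10) and in State 5 E2 cells at 48.8 ± 24.8 CPM (SD, n = 9), so the State 4 control mean of 108 ± 60.2 CPM (SD, n = 9) was the highest of the 4.

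The remaining lists were small in State 4. Of 6 genes tested of the insulin-like growth factor axis, none had an unadjusted p below 0.05, with the growth factor Igf2 at 0.77 (SE 0.61) and the binding protein Igfbp6 at -0.70 (SE 0.45). Of 5 prostanoid genes, none did, and Pla2g4a, the phospholipase that frees arachidonic acid, had 1.07 (SE 0.73). Of 9 OSE genes tested, Krt19 was higher and Krt8 lower at that threshold, Krt7 had -0.28 (SE 0.28) and the zinc finger factor Bnc1 had 0.77 (SE 0.55). Of 7 stromal genes, none did, with the matrix protein Sparc at -0.31 (SE 0.20) and the surface protein Thy1 at -1.28 (SE 0.96). The 14 immediate early, 7 p53 target, 5 TGFB response and 4 cell cycle genes tested also had none.

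When the comparison was held to the shared pseudotime range, 21 control cells stood against 10 E2 cells from 6 libraries. edgeR called 0 of 3635 genes there and gave 102 an unadjusted p below 0.05. Its log2 fold change was 1.44 for Lpl (p = 0.00448, adjusted p = 0.958), 2.07 for Ctsh (p = 0.0682, adjusted p = 0.998), 0.29 for Krt19 and 0.40 for Igfbp5. Other values moved away from 0 there, with -0.60 for Ptgis, -3.29 for Kdr, -3.40 for Mapk14 and 0.73 for mt-Cytb, while Pcp4l1 was at 0.73. Of 42 genes followed in both settings, 24 were closer to 0 in the shared range, Tln1 with a change of sign, and 18 were further from it. The median over all genes was itself lower by 0.16 on the log2 scale.

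Among the E2 cells of State 4, the levels in the shared range were lower than outside it for some genes and higher for others. Ctsh was at 234 ± 283 CPM (SD, 6 libraries) in the 10 cells of the shared range and at 491 ± 313 CPM (SD, 9 libraries) in the 33 others. For Enpp2 the values were 48.4 ± 111 and 188 ± 214 CPM, and for Tacc1 175 ± 196 and 353 ± 376 CPM. Lpl stood at 884 ± 584 and 1079 ± 389 CPM, and Igfbp5 at 446 ± 306 and 536 ± 364 CPM. The higher side was the shared range for Pcp4l1, with 2703 ± 942 and 2457 ± 479 CPM, for Krt8, with 553 ± 240 and 441 ± 204 CPM, and for Greb1, with 43.7 ± 68.6 and 34.4 ± 62.6 CPM. All of these pairs overlapped within their SDs, and they are given without a test.

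Set beside the neighbouring states, the markers took different courses. Igfbp5 stood at 154 ± 73.7 CPM in State 2 control cells (SD, n = 10), 321 ± 249 in State 4 control, 513 ± 305 in State 4 E2 and 1167 ± 467 in State 5 E2 cells (SD, n = 9 each). State 4 cells of both conditions thus lay between the ends of the branches, and the control and E2 SDs within State 4 overlapped. Enpp2 was at 28.5 ± 54.2, 108 ± 152, 173 ± 203 and 544 ± 331 CPM in the same 4 sets. Without column 15 the State 4 E2 mean of Enpp2 was 115 ± 108 CPM, and without column 3 the State 4 control mean was 71.9 ± 115 CPM (SD, n = 8 each). In the shared range the E2 mean of Enpp2 was 48.4 CPM, below the 108 CPM of all State 4 control libraries.

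Lpl and Ctsh in State 4 were closer to the neighbouring state of the same treatment than to State 4 cells of the other treatment. Lpl was at 273 ± 55.4 CPM in State 2 control and 313 ± 203 in State 4 control, and at 1002 ± 353 in State 4 E2 and 1115 ± 280 in State 5 E2. Ctsh was at 115 ± 29.9, 55.1 ± 66.5, 456 ± 188 and 518 ± 90.4 CPM in the same order. Krt19 was at 399 ± 73.5, 373 ± 183, 594 ± 151 and 590 ± 107 CPM, and Ptgis at 628 ± 103, 453 ± 212, 329 ± 189 and 305 ± 102 CPM.

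**Figure D4:**
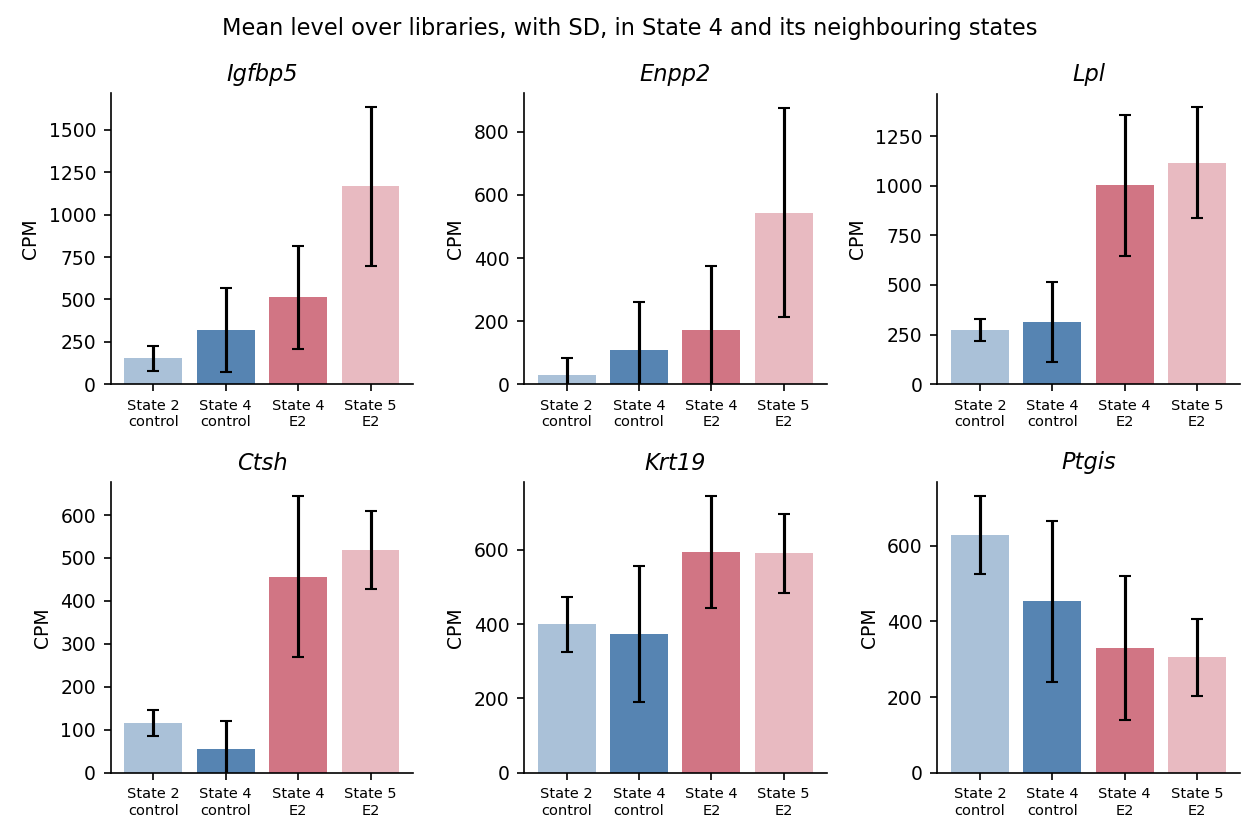
Mean level (y axis, CPM) with SD over libraries of 6 genes in State 2 and State 4 control cells (blue) and in State 4 and State 5 E2 cells (red), with State 4 in full colour. Igfbp5 and Enpp2 stand lower in State 4 E2 (513 and 173 CPM) than in State 5 E2 (1167 and 544 CPM), while Lpl, Ctsh and Krt19 stand at like levels in both.

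Among the genes with the highest ratio of State 4 E2 to State 5 E2, of those with at least 50 CPM in one of them, were Mki67, Hmmr, Pclaf and Birc5. Mki67 marks dividing cells, Hmmr and Birc5 act at the spindle, and Pclaf binds the replication clamp. Mki67 was at 75.9 ± 144 CPM in State 4 and 0.960 ± 1.06 CPM in State 5 E2 cells (SD, n = 9 each), and Pclaf at 150 ± 235 and 9.34 ± 10.4 CPM. These levels came from few cells, with Mki67 reads in 6 of 43 cells and 44.6% of them in 1 cell, and without column 11 the State 4 mean of Mki67 was 30.3 CPM. The lowest ratios were those of BC003965, Bach1, Znhit6, Gadd45b and Nfx1, for example 13.1 ± 19.1 against 69.0 ± 27.4 CPM for the stress-response gene Gadd45b.

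On the control side, the highest ratios of State 4 to State 2 were those of Cip2a, Hmmr, Dhrs13, Nfkbid and Fggy. Hmmr was at 51.5 ± 85.6 CPM in State 4 (SD, n = 9) and 1.72 ± 2.75 CPM in State 2 (SD, n = 10), with reads in 6 of 21 and 15 of 143 control cells. Of the Nfkbid reads in State 4, 84.5% fell in 1 cell. The lowest ratios were those of 2310030G06Rik, Fyco1, Dgat1, Blvrb and Slc16a9, and Dgat1, the last enzyme of triglyceride synthesis, was at 6.24 ± 8.90 and 54.8 ± 46.4 CPM.

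Summed over 25 cell cycle genes, State 4 libraries reached from 708 to 3983 CPM in control (median 1148 CPM) and from 648 to 3124 CPM in E2 (median 1319 CPM). State 5 E2 libraries had 990.3 to 1485 CPM and State 2 control libraries 824 to 1273 CPM, so the medians were close and a few State 4 libraries stood far higher. State 4 held 21 control and 43 E2 cells beside 143 control cells in State 2 and 151 E2 cells in State 5, so its sums rested on fewer cells. State 1 libraries had higher medians than State 4, at 1792 CPM in control and 1614 CPM in E2, and reached 2827 and 3316 CPM. After thinning, the median State 4 cell had reads of 3 of the 25 genes in both conditions, as in States 2 and 5, and the highest had 12 in control and 16 in E2. The thinned share of cells with a Mki67 read was 5.56% ± 16.7 in control and 12.7% ± 15.4 in E2 libraries (SD, n = 9 each, exact permutation p = 0.365), and that of Top2a was 13.3% ± 21.8 and 26.7% ± 22.5 (exact permutation p = 0.243). Unthinned, the Mki67 shares were 11.1% ± 22.0 and 15.4% ± 19.6, and those of Top2a were 48.9% ± 25.2 and 49.5% ± 18.9 (exact permutation p = 0.942). The libraries of both conditions overlapped in these shares, and no difference was detected with so few State 4 cells per library.

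**Figure D5:**
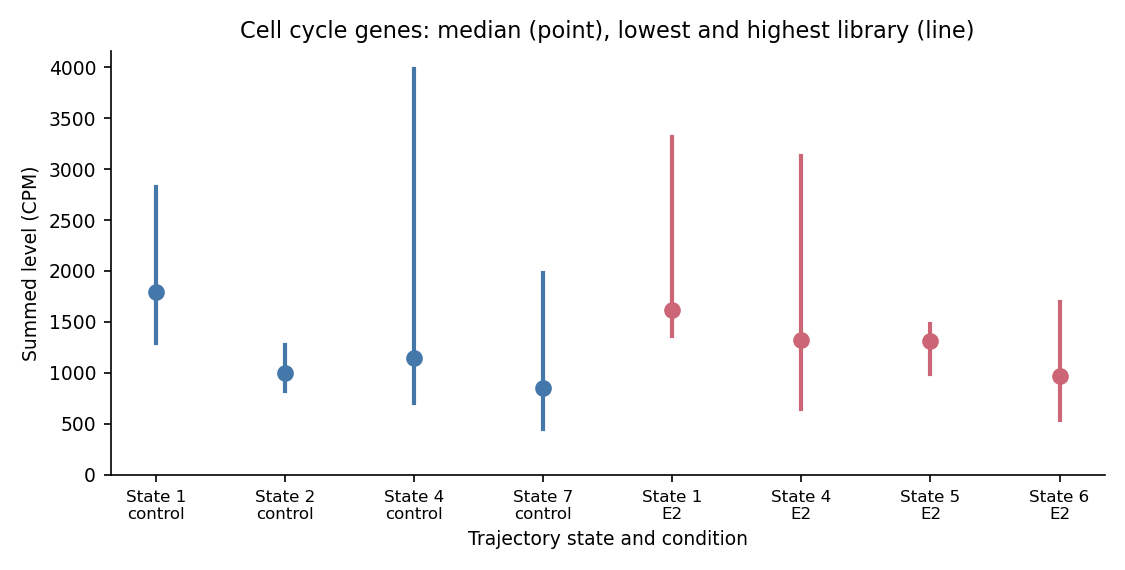
Summed level of 25 cell cycle genes (y axis, CPM) by state and condition (x axis), with the median library as a point and the lowest and highest library as the ends of a line, control in blue and E2 in red. The lines of State 4 reach 3983 CPM in control and 3124 CPM in E2, above those of States 2 and 5, while the medians of these states are close. State 1 has higher medians than State 4, and its E2 line reaches 3316 CPM.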

How the data were processed

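Reads of each capture site were quantified by the authors with kallisto, and transcripts were summed to genes with tximport. The submitters' processing notes name kallisto 0.44.0 and GRCm38. The deposited values are estimated counts per gene and cell after the authors' filters, without normalization, and 90.1% of them were whole. The deposited metadata hold the pseudotime as a score from monocle, the state, the cluster labels and the percent of mitochondrial reads computed by the authors. Deposited imputed log values were not used, because imputation shares values between cells. Of 14299 genes, 14135 had a symbol in annotation M21 of GRCm38.

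State 4 counts were rounded and summed per library, and every library with such a cell was kept. E2 was compared with control by the quasi-likelihood test of edgeR 4.0.16 (R 4.3.3), after filterByExpr and TMM scaling, with Benjamini-Hochberg adjustment. The SE was the size of the log2 fold change over the root of its F statistic. The other responsive cells were fitted alike, with at least 3 cells per library. CPM are unnormalized shares of each sum. Shares and quality measures were tested with exact two-sided permutations of the library labels. The code was tested on simulated data. Alternatives used DESeq2 1.42.0, limma-voom from limma 3.58.1, other filters, cell minimums and cell subsets, and each library left out.

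Named genes are the 3 markers, Greb1, Esr1, Esr2 and Pgr, the genes of 3 study lists, up to 4 genes with the smallest adjusted p of each other list, any called gene with reads in most libraries of its higher group (10 per direction), and the 5 highest and lowest ratios between neighbouring states. Some of the genes so chosen are not reported here. Members and lists were chosen with earlier results of these data known.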

Additional observations from a re-analysis of the deposited data

Results flagged for a closer look

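In 13 of 42 groups of libraries examined, 1 State 4 library stood apart from its group by Dixon's test. For normally distributed values, chance alone gives this in about 1 in 20 groups. Many of these levels come from 2 to 5 cells per library and some groups hold libraries without a read, so that rate need not hold here.

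Among the estrogen genes, Greb1 was at 191 CPM in E2 column 15 (next highest 64.6 CPM), Esr1 at 135 CPM in control column 8 (next 65.5 CPM), and Esr2 at 1.57 CPM, a single read, in control column 3. Enpp2 was at 642 CPM in E2 column 15. Tacc1 was at 375 CPM in control column 2 and at 784 CPM in E2 column 17. Ccl2 was at 1153 CPM in control column 10, the library that set the upper end of control for this gene. Pcp4l1 was at 4111 CPM in E2 column 11.

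Among the cell cycle genes, Mki67 was at 213 CPM in control column 5 and at 441 CPM in E2 column 11, and Top2a was at 772 CPM in control column 10 and at 597 CPM in E2 column 15. State 4 cells made up 15.2% of the cells of control column 3, the highest share of any control library.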

How the results depend on the processing

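The count of genes called between E2 and control in State 4 was 0 with edgeR, 2 with DESeq2, 4 with limma-voom, 1 without a filter on genes, 2 with thinned cells (of 857 genes tested) and 1 with robust dispersions, an alternative chosen after seeing the data, as were the means given without 1 library. It was 0 with totals in place of TMM, with at least 3 cells per library, in the shared range and in responsive cells alone, with 102 to 211 genes at an unadjusted p below 0.05. Leaving out 1 library gave 0 to 1, the 1 being Lpl without control column 2, control column 9 or E2 column 19. In the other responsive cells DESeq2 called 256 genes where edgeR called 145. With at least 3 cells per library only control column 3 remained among controls, and it was assumed to vary like the E2 libraries. A minimum of 2 cells removes no library and gives the same fit. The minimum of 3 gave 2.09 for Lpl (adjusted p = 0.964) and turned the log2 fold changes of Enpp2 to -1.10, Casp1 to 0.99, Cryab to 0.064, Tln1 to -0.19, Dab2 to 0.61, Krt7 to 0.29 and Fabp5 to 0.76. limma-voom, which moved the median of all genes by 0.25, turned Icam1 to 0.33, Dab2 to 0.037, Krt7 to 0.066, Hif1a to 0.044 and Thy1 to 0.14. Without a filter Cryab was 0.049, and in the shared range Tln1 was -0.16. None of these reversed values was called, and the cause was not tested. Without thinning, the difference in the share of cells with a read became -3.46 percentage points for Krt19 and 8.73 for Esr1. With 1 library left out, the log2 fold change ran from 0.62 to 0.91 for Krt19, 0.59 to 0.99 for Igfbp5 and -0.57 to -0.27 for Ptgis. No paired analysis was possible because the control and E2 libraries share no replicate numbers.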
